A study of Mus musculus with 9 samples.

Results

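The genes described here are 34 genes of nucleotide excision repair and translesion synthesis, chosen by pathway membership and found by symbol in a table of 56691 mouse genes. They comprise 7 damage sensors, 4 factors of transcription-coupled repair, 10 subunits of the helicase and kinase complex TFIIH, 7 genes for XPA, RPA and the repair nucleases, and 6 genes of translesion synthesis. All 34 passed a filter on low counts and were among the 14151 genes tested. RNA was sequenced from NIH/3T3 cells, an immortalised mouse embryonic fibroblast line labelled WT, in 3 groups of 3 libraries. The co-treated cells received UVA at 10 J/cm2 and alpha-arbutin, a glycosylated hydroquinone. The UVA cells received the same dose without alpha-arbutin, and the control cells carried no treatment in the labels. All groups were grown in DMEM with fetal bovine serum. The study asked whether alpha-arbutin counters photodamage, DNA repair included. The labels give neither the order of treatment nor the alpha-arbutin dose or the time to harvest. They also do not say that libraries came from separate cultures, so p-values measure the spread between these libraries, which may be technical. NIH/3T3 is an immortal line and all cells shared it, so the values come from 1 genetic background.

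Nucleotide excision repair removes bulky lesions such as ultraviolet photoproducts by cutting out a short stretch of the damaged strand. Lesions are found either by XPC and the DDB complex anywhere in the genome, or by RNA polymerase II stalling in a transcribed gene, and both routes lead to TFIIH, XPA, RPA and the nucleases XPG and ERCC1-XPF. Translesion synthesis lets replication pass a lesion that remains, using specialised polymerases recruited to ubiquitinated PCNA. UVA produces oxidised bases as well as pyrimidine dimers, and the dimers are the main substrate of this pathway in irradiated skin.

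Each library held between 16.3 and 20.9 counts in units of 1e6, and the 34 genes together took 0.363 to 0.373% of them. The fibroblast label was checked against 8 markers, all of which passed the filter, with a summed level of 6079 to 6343 CPM (counts scaled to a library total of 1e6) in co-treated, 6369 to 6654 CPM in UVA and 8315 to 8568 CPM in control libraries. Of these markers 1 was higher and 6 were lower in UVA than in control cells. Markers of other cell types were low in every library, with 4 epithelial markers summing to at most 4.48 CPM, 5 melanocyte markers to at most 8.43 CPM, 3 endothelial markers to at most 5.81 CPM and 3 immune markers to at most 5.85 CPM. Krt5, Epcam and Dct were listed at 0 in all 9 libraries. The 13 markers of cycling cells, set beside the genes that also serve replication, summed to 3409 to 3584 CPM in co-treated, 3457 to 3576 CPM in UVA and 3445 to 3529 CPM in control libraries. All levels are shares of a library, so fewer cells of a type and less RNA per cell cannot be told apart.

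After UVA, most of the excision repair and translesion genes stayed close to control levels, with Ercc1 the main exception. A gene was called at an adjusted p below 0.05 in edgeR's quasi-likelihood test, with Benjamini-Hochberg adjustment over all tested genes. In UVA against control cells 3 of the 34 genes were higher (Ercc1, Ercc3 and Cetn2) and 2 were lower (Rpa1 and Polh), which is 14.7% of them. Of all tested genes 29.3% were called, 14.7% higher and 14.6% lower. The median absolute log2 fold change was 0.10 over the 34 genes and 0.16 over all tested genes. The largest SE of a log2 fold change was 0.14 among the 34 genes and 0.87 among all tested genes. These medians therefore also differ in noise. The 95% interval of the fold change lay within 1.5-fold of no change in either direction for 33 of the 34 genes, the exception being Ercc1, and within 1.25-fold for 24 of them. The 3 UVA libraries did not overlap the 3 control libraries for 6 genes, Ercc1, Rpa1, Ercc3, Cul4b, Rad23b and Xab2, or 17.6% of the 34, against 42.0% of all tested genes. Single libraries bore on these counts: 1 gene was higher without UVA library 2 or without control library 1 or 2, and 1 was lower without UVA library 2 or 3 or without control library 1 or 2.

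In co-treated against control cells 4 of the 34 genes were higher (Ercc1, Ercc3, Rev1 and Polk) and 1 was lower (Rpa1). That is again 14.7% of the genes, while 25.8% of all tested genes were called, 13.0% higher and 12.9% lower. The median absolute log2 fold change was 0.09 over the 34 genes and 0.15 over all tested genes, where the largest SE was 0.14 and 0.90. The libraries of these groups did not overlap for 11 of the 34 genes, or 32.4%, against 39.7% of all tested genes. The count of higher genes was 1 without co-treated library 3 or control library 3, 2 without control library 1 or 2, 2 with DESeq2 or without the filter on low counts, and 1 with limma. The count of lower genes was 2 without co-treated library 3 or control library 1, and 2 with limma. Both comparisons use the same control libraries, so their calls are not independent of each other.

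**Figure D1:**
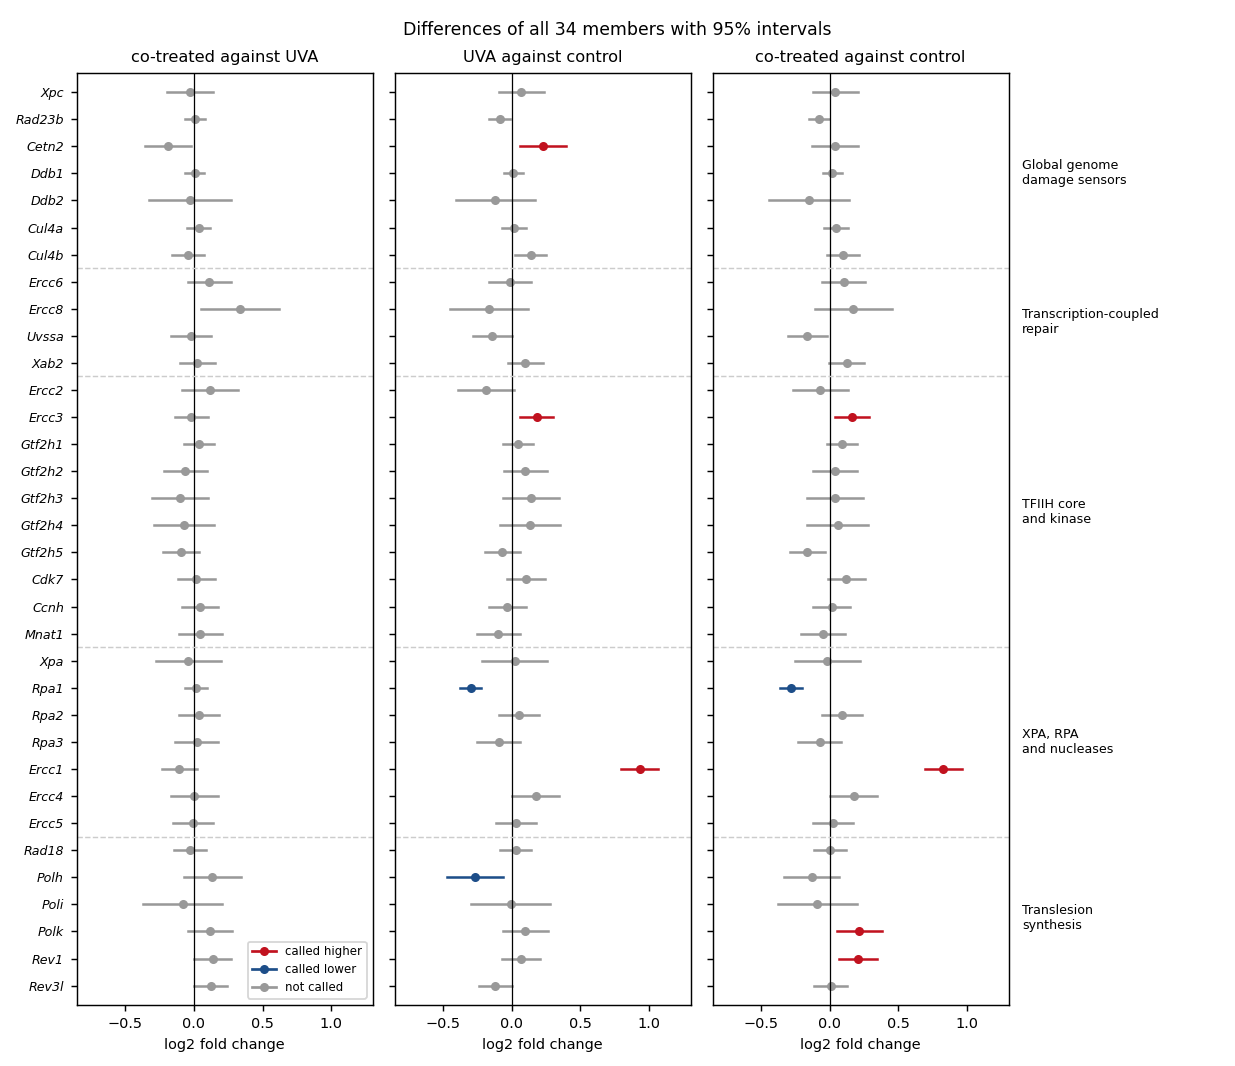
Log2 fold change of each of the 34 genes in the 3 comparisons, with co-treated against UVA first and the 2 comparisons with control after it. Points are edgeR estimates, bars are 95% intervals, red and blue points passed the adjusted threshold of 0.05, and genes are grouped by role. Ercc1 stands at 0.93 in UVA and 0.83 in co-treated against control cells, outside the range of all other genes.

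Ercc1 encodes the partner of XPF in the nuclease that cuts on the upstream side of the lesion, and it also serves interstrand crosslink repair. The gene (ENSMUSG00000003549, chromosome 7, 19078703 to 19090449, plus strand, mm39) stood at 87.7, 86.9 and 92.8 CPM in co-treated, 88.8, 89.0 and 109 CPM in UVA, and 51.4, 51.5 and 48.1 CPM in control libraries. Every irradiated library, with or without alpha-arbutin, lay above every control library, and UVA library 3 was the highest. The log2 fold change was 0.93 ± 0.07 (SE) in UVA against control cells, with a 95% interval of 0.80 to 1.07 and an adjusted p of 5.77e-12 (edgeR). It was 0.83 ± 0.07 in co-treated against control cells, with an adjusted p of 9.41e-11 (edgeR). Both calls held under all 17 alternative settings tried. Between co-treated and UVA cells the difference was -0.10 ± 0.06, with an interval of -0.23 to 0.03, and did not pass (adjusted p = 0.812, edgeR), and without UVA library 3 it was 0.004.

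The gene for the other subunit of this nuclease, Ercc4 (XPF), had 24.9 ± 1.19 CPM in co-treated, 24.9 ± 2.09 CPM in UVA and 22.03 ± 1.33 CPM in control cells (SD, n = 3 each). Its log2 fold change of 0.17 ± 0.08 in UVA against control cells did not pass (adjusted p = 0.122, edgeR). The subunits stood in a different ratio in irradiated cells: per exonic length, the FPKM of Ercc1 was 7.23, 7.87 and 8.19 times that of Ercc4 in co-treated, 7.05, 7.98 and 10.2 times in UVA, and 4.75, 5.37 and 4.75 times in control libraries. The ratios of the irradiated libraries lay above those of all control libraries. This ratio is of RNA and was not put to a test of its own.

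The annotation bears on the Ercc1 counts, since the labels do not say whether the counting used strand. Cd3eap, which encodes a subunit of RNA polymerase I, lies on the opposite strand and shares 511 bases with the end of Ercc1, so reads there cannot be assigned with certainty. Shared bases here and below are taken over whole gene spans, introns included. How many of them are exonic, and so counted, was not measured. Cd3eap had 28.4, 24.8 and 27.7 CPM in co-treated, 28.1, 26.8 and 25.3 CPM in UVA, and 26.0, 24.6 and 26.6 CPM in control libraries, at a log2 fold change of 0.05 ± 0.08 in UVA against control cells (not called). Ercc2, the helicase gene of TFIIH, lies downstream on the same chromosome (19115935 to 19129619) and was at -0.19 ± 0.10 in the same comparison (adjusted p = 0.159, edgeR). On the other side of Ercc1, the transcription factor gene Fosb, named after its values were seen, was at 0.43 in UVA against control cells (adjusted p = 0.0101, edgeR) and at 0.20 in co-treated against control cells (adjusted p = 0.286, edgeR). Ppp1r13l, which lies between Ercc1 and Ercc2, was at -0.15 ± 0.11 in UVA against control cells (adjusted p = 0.350, edgeR). In co-treated against control cells it was at -0.20 ± 0.11 (adjusted p = 0.205, edgeR). Of these neighbours only Fosb passed in UVA against control cells, and none passed in co-treated against control cells.

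The promoters shown are those of Ercc1 and Rpa1, whose calls in both comparisons with control held under all 17 alternative settings. Ercc3 also passed in both comparisons, but not under every setting. Both windows shown hold a GC box, and only that of Rpa1 holds CCAAT boxes. The letters of both come from RefSeq promoter entries on GRCm38.p6, not on mm39. Capitals mark a CCAAT box (CCAAT, or ATTGG on the other strand) or a GC box (GGGCGG, or CCGCCC on the other strand). The Ercc1 stretch is the 250 bases before the RefSeq start, chr7:19344821-19345070, plus strand, with 55.6% G and C and 1 GC box. A transcript annotated by GENCODE starts 293 bases upstream of that RefSeq start, so the stretch lies inside the gene as GENCODE annotates it. The Rpa1 stretch is the 108 bases between the GENCODE starts of Rpa1 and of Smyd4, a divergent neighbour on the other strand. It is chr11:75348325-75348432, plus strand, with 68.5% G and C, 2 CCAAT boxes and 2 GC boxes. The stretches are thus not defined alike.
Ercc1 promoter: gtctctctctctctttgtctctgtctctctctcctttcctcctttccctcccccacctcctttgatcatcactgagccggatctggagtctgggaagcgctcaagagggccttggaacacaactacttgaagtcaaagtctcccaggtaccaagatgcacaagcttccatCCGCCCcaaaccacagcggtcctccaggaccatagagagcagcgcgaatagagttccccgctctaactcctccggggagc
Rpa1-Smyd4 gap: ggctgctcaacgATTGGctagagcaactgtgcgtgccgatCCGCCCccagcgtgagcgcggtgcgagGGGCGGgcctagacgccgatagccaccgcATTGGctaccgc

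Of the 34 genes 28 had a RefSeq promoter entry of 300 bases, from 250 before to 50 after the start. For these genes 31 entries were searched, with any on chromosome 18 left out, and a gene was counted if any of its searched entries held the letters. The shares over all entries keep that chromosome, are per entry and are not limited to tested genes, so the counts are not made alike. On either strand, a GC box was in 20 of these 28 and in 35.7% of all 32851 promoter entries. A CCAAT box was in 13 of 28 genes and in 37.4% of all entries. The E-box CACGTG was in 7 of 28 (7.15% of all entries), the AP-1 letters TGANTCA in 2 (7.81%), the antioxidant response core TGACNNNGC in 3 (12.4%) and the cyclic AMP element TGACGTCA in 1 (1.79%). The E2F letters TTTCGCGC and TTTGGCGC were in none of the 28, and in 0.323% and 0.514% of all entries. Matches describe letters in this window and not factor binding.

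Rpa1 encodes the large subunit of RPA, which coats the undamaged strand during excision repair and single-stranded DNA during replication. The gene (ENSMUSG00000000751, chromosome 11, 75188992 to 75239150, minus strand, mm39) stood at 257.0, 251.9 and 259.9 CPM in co-treated, 251.6, 259.5 and 249.1 CPM in UVA, and 311.4, 310.5 and 312.3 CPM in control libraries. All 6 irradiated libraries lay below all 3 control libraries, which were nearly equal. Its log2 fold change was -0.30 ± 0.04 in UVA against control cells, with an interval of -0.38 to -0.22 and an adjusted p of 4.86e-07 (edgeR), or 1.23-fold lower. In co-treated against control cells it was -0.28 ± 0.04 (adjusted p = 1.45e-06, edgeR). Both calls held under all 17 alternative settings, and co-treated and UVA cells differed by 0.02 ± 0.04, with an interval of -0.06 to 0.10 (adjusted p = 0.960, edgeR).

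The genes for the smaller RPA subunits did not pass: in UVA against control cells Rpa2 was at 0.05 ± 0.07 and Rpa3 at -0.09 ± 0.08. The FPKM of Rpa1 was 3.44 ± 0.18 times that of Rpa2 in co-treated, 3.51 ± 0.31 times in UVA and 4.45 ± 0.16 times in control cells (SD, n = 3 each), and the control ratios did not overlap the others. Of the 13 cycling-cell markers 3 were higher and 1 was lower in UVA than in control cells, while 29.3% of all tested genes were called. The median log2 fold change of these markers was 0.06, and their part in the Rpa1 result was not tested. Smyd4, whose start lies 109 bases from that of Rpa1 in the deposited annotation, had 12.8, 15.1 and 12.5 CPM in co-treated, 10.7, 12.5 and 12.5 CPM in UVA, and 17.1, 14.9 and 15.4 CPM in control libraries. All 3 UVA libraries lay below the control libraries, and the co-treated libraries overlapped them. It was lower in UVA than in control cells (-0.41 ± 0.11, adjusted p = 0.00458, edgeR), and in co-treated against control cells it was at -0.23 ± 0.11 (adjusted p = 0.115, edgeR). Smyd4 was singled out after its values were seen: 15 of the 34 genes had a tested gene starting within 1000 bases on the other strand. The neighbour was called in UVA against control cells in 3 of these 15 pairs, while 29.3% of all tested genes were called. In that comparison Rpa1 with Smyd4 was the only pair with both genes called, and a link between these genes was not tested.

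**Figure D2:**
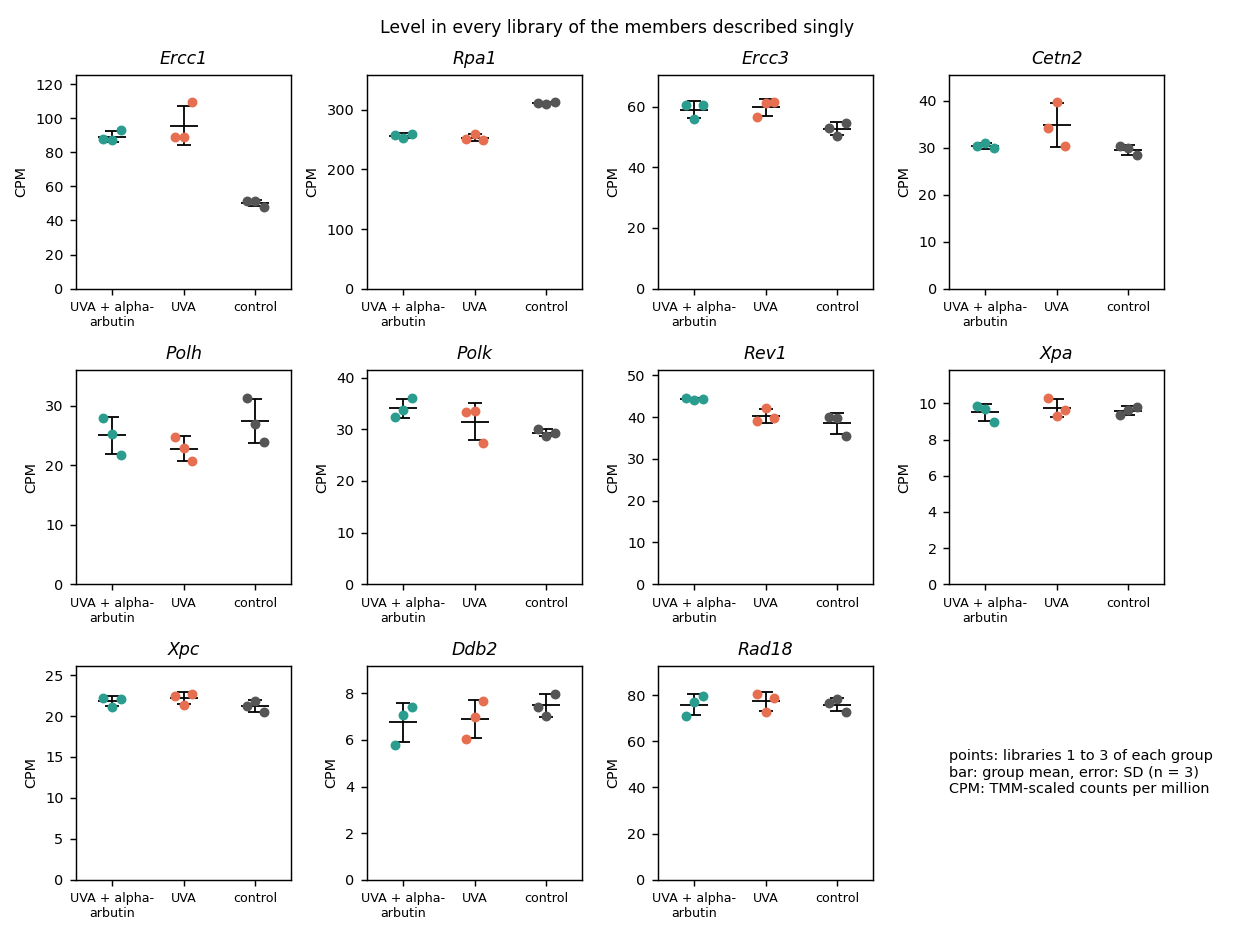
Level in CPM in each library for the genes described singly, with co-treated, UVA and control libraries from left to right. Points are libraries, bars are group means and errors are SD (n = 3), each axis starting at 0. Ercc1 lies above and Rpa1 below the control libraries in all irradiated libraries, while Xpa, Xpc, Ddb2 and Rad18 overlap between groups.

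Among the remaining genes of this step, Xpa, which verifies the damaged strand together with TFIIH, had 9.88, 9.68 and 8.96 CPM in co-treated, 10.3, 9.33 and 9.66 CPM in UVA, and 9.35, 9.65 and 9.82 CPM in control libraries. The groups overlapped, and UVA and control cells differed by 0.02 ± 0.12 with an interval of -0.21 to 0.26. The span of Xpa shares 17057 bases, introns included, with Ncbp1 on the opposite strand, while Xpa has 1894 exonic bases in all. Its counts may be uncertain in the same way as those of Ercc1, to an extent that was not measured. Ercc5, which encodes the nuclease XPG that cuts on the downstream side, was at 0.03 in UVA and 0.03 in co-treated against control cells.

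Of the 7 damage sensors of global genome repair 1, Cetn2, was called in UVA against control cells, where 29.3% of all tested genes were. None was called in the other comparisons with edgeR, DESeq2 or limma. Of all tested genes edgeR called 25.8% in co-treated against control and 0.0353% in co-treated against UVA cells. At an unadjusted p below 0.05 there was 1 sensor in each of these, against 35.8% and 6.76% of all tested genes. In UVA against control cells 2 sensors were called with DESeq2, upper-quartile factors, a replicate block or the compared groups alone. With either limma fit 1 was called, which was not Cetn2. The count was 0 without UVA library 1 or 2 or without control library 1, 2 or 3. Xpc, which binds the distortion opposite a lesion, had 22.2, 21.1 and 22.1 CPM in co-treated, 22.5, 21.4 and 22.8 CPM in UVA, and 21.3, 21.9 and 20.4 CPM in control libraries. Ddb2, which binds ultraviolet photoproducts directly, had 5.80, 7.07 and 7.41 CPM in co-treated, 6.03, 6.98 and 7.66 CPM in UVA, and 7.44, 7.02 and 7.996 CPM in control libraries. The groups overlapped for both genes. In UVA against control cells Xpc was at 0.07 ± 0.08 (adjusted p = 0.566, edgeR) and Ddb2 at -0.12 ± 0.14 (adjusted p = 0.576, edgeR). Ddb2 had the fewest counts of the 34 genes, 95 to 167 per library, and its interval ran from -0.41 to 0.17. Its span shares 2527 bases, introns included, with Acp2 on the opposite strand, which had 710 to 957 counts per library. The counts of Ddb2 may thus be uncertain in the same way as those of Ercc1. Acp2 was at -0.08 ± 0.06 in UVA against control cells (adjusted p = 0.389, edgeR). In human cells the genes for both sensors are induced by p53, so the p53 targets Cdkn1a, a cell cycle inhibitor, and Mdm2, the ubiquitin ligase of p53, were set beside them. In UVA against control cells Cdkn1a was at 0.98 ± 0.07 (adjusted p = 1.89e-11, edgeR) and Mdm2 at 0.86 ± 0.06 (adjusted p = 8.03e-12, edgeR).

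Cetn2, a centrin that stabilises XPC and also sits at centrioles, had 30.3, 31.1 and 29.9 CPM in co-treated, 34.3, 39.7 and 30.4 CPM in UVA, and 30.4, 29.9 and 28.4 CPM in control libraries. UVA library 2 was the highest, and UVA library 3 lay within the control range. The log2 fold change of 0.23 ± 0.08 in UVA against control cells passed (adjusted p = 0.0316, edgeR). The call ended when UVA library 2 was left out (adjusted p = 0.275), and also without UVA library 1 (0.0541) or control library 1 (0.0526), 2 (0.0653) or 3 (0.133), and with limma (0.0868 and 0.0836). In co-treated against control cells it was at 0.04 (not called), but the difference between co-treated and UVA cells, -0.19 ± 0.08, did not pass either (adjusted p = 0.699, edgeR). Cul4b and Rad23b did not overlap between UVA and control libraries yet missed the threshold. Cul4b, a scaffold of the ubiquitin ligase that holds DDB2, was at 0.14 (adjusted p = 0.0615, edgeR) and Rad23b, the partner that protects XPC, at -0.09 (adjusted p = 0.0652, edgeR). The adaptor Ddb1 was at 0.01 and the scaffold Cul4a at 0.01.

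No gene of transcription-coupled repair was called in any comparison with edgeR. Of all tested genes 29.3% were called in UVA against control and 25.8% in co-treated against control cells. Ercc6 and Ercc8, which encode the stalled-polymerase factors CSB and CSA, were at -0.01 and -0.17 in UVA against control cells. Uvssa, which brings TFIIH to the stalled polymerase, was at -0.14 (adjusted p = 0.135, edgeR), and Xab2, an XPA-binding splicing factor, was at 0.10 with no overlap between UVA and control libraries (adjusted p = 0.254, edgeR). At an unadjusted p below 0.05, none of the 4 genes passed in UVA against control cells, where 38.9% of all tested genes did, and 1, Uvssa, passed in co-treated against control cells, where 35.8% did. The count of called genes was also 0 with DESeq2 and with limma, and it was 1 in co-treated against control cells without control library 1. Ercc8 had 108 to 218 counts per library, and its interval in UVA against control cells ran from -0.45 to 0.12.

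Of the 10 TFIIH genes only Ercc3 was called in the edgeR fit on all libraries, in both comparisons with control. That is 10% in each, against 29.3% of all tested genes for UVA and 25.8% for co-treated cells. Ercc3 encodes XPB, the translocase that opens DNA around the lesion and at promoters. The gene had 60.5, 55.9 and 60.7 CPM in co-treated, 56.6, 61.3 and 61.4 CPM in UVA, and 52.9, 50.5 and 54.8 CPM in control libraries. All irradiated libraries lay above the control libraries, by a narrow margin. The log2 fold change was 0.18 ± 0.06 in UVA against control cells (adjusted p = 0.0207, edgeR), and 0.16 ± 0.06 in co-treated against control cells (adjusted p = 0.0428, edgeR). The first call ended without UVA library 2 (adjusted p = 0.0743) or 3 (0.0789) or control library 1 (0.0549) or 2 (0.113). The second ended without co-treated library 1 (0.115) or 3 (0.147) or control library 1 (0.0955), 2 (0.184) or 3 (0.0510), with DESeq2 (0.0619), with limma (0.0582 and 0.0572) and without the filter on low counts (0.109). With either limma fit or without co-treated library 3, 1 TFIIH gene other than Ercc3 was called in co-treated against control cells. Gtf2h5 was at -0.16 in that comparison, with no overlap between libraries (adjusted p = 0.0587, edgeR). The other 9 TFIIH genes ran from -0.19 for Ercc2 to 0.14 for Gtf2h3 in UVA against control cells. They include the kinase module, in which Cdk7, the kinase, was at 0.10, Ccnh, its cyclin, at -0.03 and Mnat1, the assembly factor, at -0.10. The count of Ccnh may be uncertain because the span of the gene shares 8690 bases, introns included, with Rasa1 on the opposite strand.

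Of the 6 translesion genes 1 was lower in UVA against control cells, Polh, and 2 were higher in co-treated against control cells, Rev1 and Polk. That is 16.7% and 33.3% of them, against 29.3% and 25.8% of all tested genes called in the same comparisons. Polh, the polymerase that copies past thymine dimers accurately and is mutated in the variant form of xeroderma pigmentosum, had 28.0, 25.3 and 21.7 CPM in co-treated, 24.8, 22.9 and 20.7 CPM in UVA, and 31.3, 26.9 and 23.9 CPM in control libraries. The groups overlapped, with means of 25.02 ± 3.15 CPM in co-treated, 22.8 ± 2.07 CPM in UVA and 27.4 ± 3.71 CPM in control cells (SD, n = 3 each). In each group the level fell from library 1 to library 3. Each UVA library lay below the control library of the same number, though the labels do not make these numbers pairs. At -0.26 ± 0.10 in UVA against control cells Polh was called lower (adjusted p = 0.0440, edgeR), close to the threshold. The call ended without UVA library 2 (adjusted p = 0.0830) or 3 (0.194) or control library 1 (0.298) or 2 (0.0773), with DESeq2 (0.0597) and with limma (0.145 and 0.142). It held under the other 10 of the 17 alternatives, a replicate block among them. In co-treated against control cells Polh was at -0.13 (adjusted p = 0.370, edgeR), and co-treated and UVA cells differed by 0.14 ± 0.10 (adjusted p = 0.853, edgeR), so the loss of the call is not shown to be a difference between them.

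Rev1, the scaffold that holds the other translesion polymerases, had 44.6, 44.04 and 44.5 CPM in co-treated, 39.0, 42.2 and 39.8 CPM in UVA, and 40.1, 39.8 and 35.5 CPM in control libraries. All co-treated libraries lay above all others. The log2 fold change was 0.21 ± 0.07 in co-treated against control cells (adjusted p = 0.0197, edgeR), and the call ended without co-treated library 3 (0.0507) or control library 3 (0.158) and with limma (0.0589 and 0.0577). Co-treated and UVA cells differed by 0.14 ± 0.07, which did not pass (adjusted p = 0.729, edgeR), and UVA and control cells by 0.07 (adjusted p = 0.482, edgeR). The span of Rev1 shares 2794 bases, introns included, with Eif5b on the opposite strand, and Eif5b was at -0.10 in co-treated against control cells (adjusted p = 0.0700, edgeR).

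Polk, a polymerase for bulky adducts at guanine that also fills repair gaps, had 32.3, 33.7 and 36.1 CPM in co-treated, 33.4, 33.6 and 27.3 CPM in UVA, and 30.0, 28.6 and 29.3 CPM in control libraries. All co-treated libraries exceeded the control libraries, while UVA library 3 lay below them. At 0.22 ± 0.08 the gene was called higher in co-treated against control cells (adjusted p = 0.0438, edgeR). The call ended without co-treated library 2 (0.0817) or 3 (0.186) or control library 1 (0.0727), 2 (0.128) or 3 (0.112), with DESeq2 (0.0665), with limma (0.125 and 0.122) and without the filter on low counts (0.0685). Co-treated and UVA cells differed by 0.12 (adjusted p = 0.833, edgeR). Cert1, a ceramide transfer gene named after its values were seen, starts 39 bases from Polk on the other strand and was also called higher in co-treated against control cells, at 0.30 ± 0.06 (adjusted p = 0.000287, edgeR). In UVA against control cells Cert1 was at 0.35 ± 0.06 (adjusted p = 2.80e-05, edgeR), while Polk was at 0.10 (adjusted p = 0.387, edgeR). Of the 15 pairs with a neighbour on the other strand, Polk with Cert1 was the only one with both genes called in co-treated against control cells. Of all tested genes 25.8% were called in that comparison, and a link between Polk and Cert1 was not tested.

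Rad18, the ligase that ubiquitinates PCNA at stalled forks, had 71.0, 76.9 and 79.8 CPM in co-treated, 80.7, 72.5 and 78.7 CPM in UVA, and 76.4, 78.4 and 72.8 CPM in control libraries. The groups overlapped fully, and UVA and control cells differed by 0.03 ± 0.06, with an interval of -0.09 to 0.14. Rev3l, the catalytic subunit of polymerase zeta, was at -0.12 in UVA against control cells (adjusted p = 0.132, edgeR), and Poli, which inserts opposite damaged purines, at -0.01.

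Alpha-arbutin on top of UVA moved none of the 34 genes past the threshold. In co-treated against UVA cells 0 of 34 were called with edgeR, and 5 of the 14151 tested genes were (0.0353%, with 0.0283% higher and 0.00707% lower). Over all tested genes that count depended on single libraries, with 14 higher and 8 lower without UVA library 3, and 1 higher and 0 lower without co-treated library 2. Among the 34 genes the count was also 0 with DESeq2, with limma and under every other alternative setting tried, 17 in all, and the lowest adjusted p among the 34 was 0.686. At an unadjusted p below 0.05 there were 4 genes, Ercc8, Rev3l and Rev1 higher and Cetn2 lower, which is 11.8% of the 34 against 6.76% of all tested genes. The libraries of both groups did not overlap for 1 gene, Rev1, or 2.94% of the 34, against 10.8% of all tested genes. The median absolute log2 fold change was 0.04, against 0.07 over all tested genes. These medians also differ in noise, with a largest SE of 0.14 among the 34 genes and 1.63 among all tested genes.

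The intervals show, gene by gene and without adjustment for the number of genes, which differences the spread between these libraries allows. That spread may be technical, so they do not bound what separate cultures could show. Between co-treated and UVA cells the 95% interval lay within 1.5-fold of no change for 33 of the 34 genes and within 1.25-fold for 28. The exception at 1.5-fold was Ercc8, shown by library after its values were seen, with 9.03, 9.79 and 12.1 CPM in co-treated, 9.80, 6.67 and 7.96 CPM in UVA, and 9.35, 8.98 and 9.15 CPM in control libraries. Its co-treated and UVA libraries overlapped, and the log2 difference of 0.34 ± 0.14 had an interval of 0.05 to 0.62 and an adjusted p of 0.686 (edgeR). Xpc differed between co-treated and UVA cells by -0.03 ± 0.08, with an interval of -0.19 to 0.14. Ddb2 differed by -0.03 ± 0.14, and Rad18 by -0.03 ± 0.06.

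**Figure D3:**
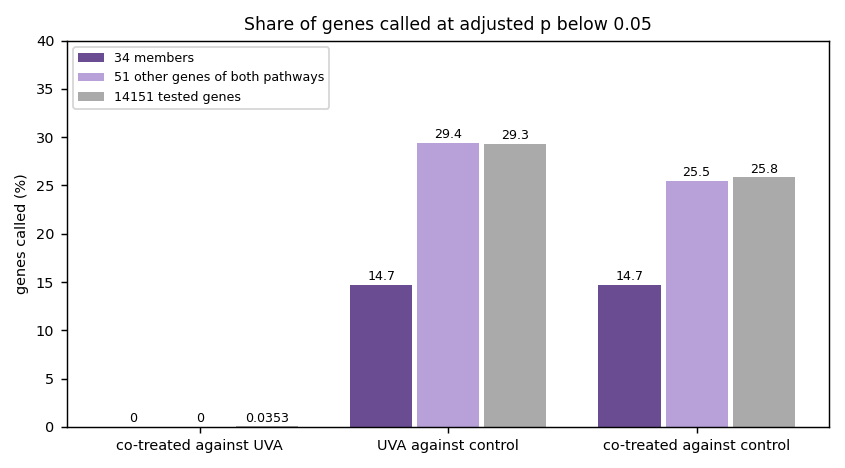
Percent of genes called in each comparison among the 34 genes, the 51 other pathway genes and all 14151 tested genes. The 34 genes stand at 0% in co-treated against UVA and at 14.7% in both comparisons with control, where all tested genes stand at 25.8% for co-treated and 29.3% for UVA cells.

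A list of 51 other genes of these pathways, which covers chromatin and ubiquitin factors, gap filling and ligation, and further translesion factors, was read in the same fits, and all 51 were tested. In co-treated against UVA cells 0 were called with edgeR, DESeq2 or limma, and 1 had an unadjusted p below 0.05. In co-treated against control cells 7 were higher and 6 lower, or 25.5%, against 25.8% of all tested genes. In UVA against control cells 9 were higher and 6 lower, or 29.4%, against 29.3% of all tested genes, so the share was at the background. The count of lower genes depended on single libraries: in UVA against control cells it was 2 without UVA library 3 and 3 without control library 3, and in co-treated against control cells it was 3 without co-treated library 1 or without control library 1, 2 or 3.

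The gap-filling step held the largest of these changes. Pold4, the small subunit of polymerase delta, which is degraded after ultraviolet damage in human cells, had 34.9, 33.3 and 37.8 CPM in co-treated, 30.9, 30.0 and 38.6 CPM in UVA, and 21.1, 18.8 and 17.3 CPM in control libraries. Every irradiated library exceeded every control library. The log2 fold change was 0.81 ± 0.09 in UVA against control cells (adjusted p = 1.00e-07, edgeR) and 0.89 ± 0.09 in co-treated against control cells (adjusted p = 1.60e-08, edgeR). Pcna, the sliding clamp for repair synthesis and the platform for translesion polymerases, had 148, 149 and 156 CPM in co-treated, 155, 157 and 159 CPM in UVA, and 139, 142 and 138 CPM in control libraries, at 0.17 ± 0.04 in UVA against control cells (adjusted p = 0.00226, edgeR). Pole4, an accessory subunit of polymerase epsilon, rose by 0.30 ± 0.06 and Pole, the catalytic subunit, fell by 0.23 ± 0.05 in UVA against control cells (adjusted p = 0.000313 and 0.000444, edgeR).

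Among the recognition and transcription factors of that list, Polr2a, the large subunit of RNA polymerase II, rose by 0.36 ± 0.04 in UVA against control cells (adjusted p = 2.12e-07, edgeR). Chd1l, a chromatin remodeller, rose by 0.55 ± 0.10 and Rbx1, the RING subunit of the ubiquitin ligase that holds DDB2, by 0.22 ± 0.04 (adjusted p = 0.000123 and 0.000346, edgeR). Cops2, a subunit of the COP9 signalosome that switches this ligase off, fell by 0.20 ± 0.05 (adjusted p = 0.00106, edgeR).

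Per exonic length, the 34 genes covered a wide range of levels in control cells. The highest was Ddb1 at 243 FPKM and the lowest Ercc8 at 1.20 FPKM, with a median of 6.33 FPKM, against 5.70 FPKM over all tested genes. Ddb1, which also serves ubiquitin ligases outside repair, took 42.5% of the counts of the 34 genes in co-treated, 42.6% in UVA and 42.1% in control cells. Among the sensors the order in control cells was Ddb1, Rad23b (104 FPKM), Cul4a (28.2 FPKM), Cetn2 (18.1 FPKM), Cul4b (17.6 FPKM), Xpc (3.88 FPKM) and Ddb2 (2.75 FPKM). Cetn2 and Cul4b could not be separated, since their ranges over the 9 libraries overlapped, while the other neighbours in that order were apart. Xpc and Ddb2, whose proteins bind the lesion, stood lowest among the sensors.

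In transcription-coupled repair the order was Xab2 (8.51 FPKM), Uvssa (4.80 FPKM), Ercc6 (2.88 FPKM) and Ercc8, with no overlap between neighbours. In TFIIH, control levels ran from 22.6 FPKM for Gtf2h1 and 18.7 FPKM for Ercc3 to 4.56 FPKM for Ercc2, 4.50 FPKM for Gtf2h4 and 2.54 FPKM for Gtf2h3. Ercc2 and Gtf2h4 overlapped, as did Gtf2h5 with Cdk7 and Gtf2h2 with Mnat1. At the incision step Rpa1 led with 56.1 FPKM, followed by Rpa3 (25.9 FPKM), Ercc1 (16.3 FPKM), Rpa2 (12.6 FPKM), Ercc5 (6.34 FPKM), Xpa (5.10 FPKM) and Ercc4 (3.29 FPKM). Rpa3 and Ercc1 changed places between the groups. Ercc1 averaged 28.6 ± 0.96 FPKM in co-treated, 30.6 ± 3.84 FPKM in UVA and 16.3 ± 0.67 FPKM in control cells, and Rpa3 24.5 ± 1.43, 24.1 ± 1.67 and 25.9 ± 0.58 FPKM in the same groups (SD, n = 3 each). Ercc1 stood above Rpa3 in all 6 irradiated libraries and below it in all 3 control libraries. In translesion synthesis Rad18 led with 13.2 FPKM, Rev1 (6.27 FPKM) overlapped with Polk (5.30 FPKM), Rev3l (4.70 FPKM) overlapped with Polh (4.62 FPKM), and Poli was lowest at 1.93 FPKM.

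**Figure D4:**
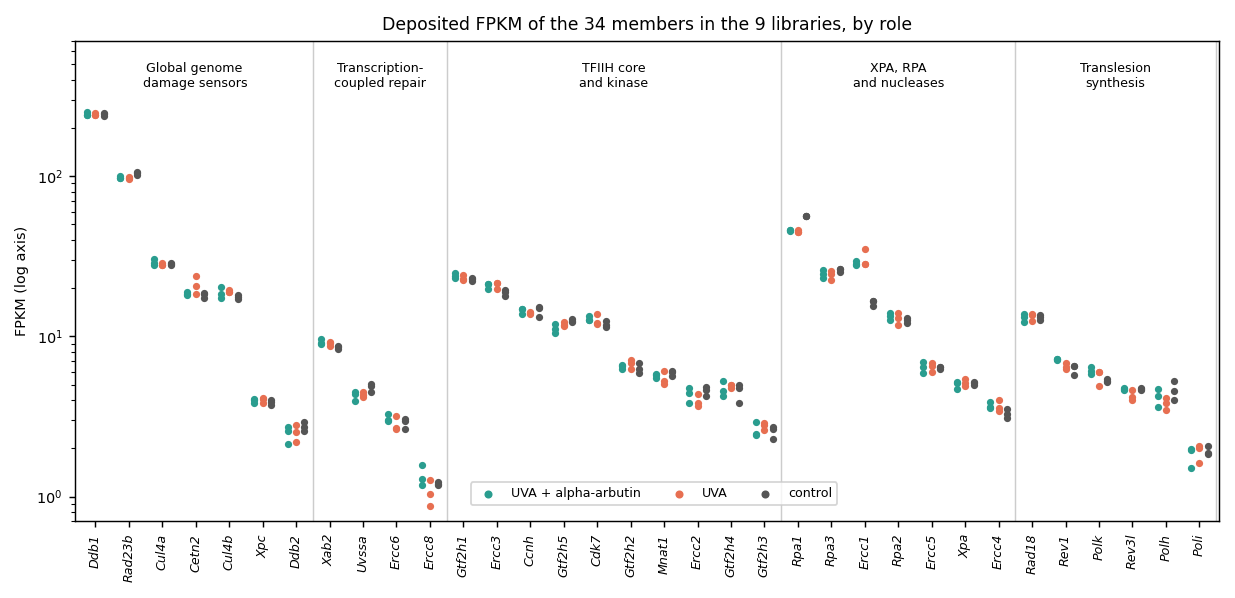
Deposited FPKM of the 34 genes in all 9 libraries on a log axis, by role and ordered by control level within each role. Colours mark co-treated, UVA and control libraries, each point being a library. Levels span the range between Ercc8 and Ddb1, and Ercc1 is the gene whose irradiated libraries stand farthest from its control libraries.

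The genes also differ in length, from 3.24 kb for Rpa3 to 143 kb for Rev3l and 150.3 kb for Mnat1, with a median of 31.8 kb. Across the 34 genes the Spearman correlation of gene length with the log2 fold change was 0.45 in co-treated against UVA, -0.26 in UVA against control and 0.03 in co-treated against control cells. Over all 14151 tested genes it was 0.14, -0.12 and -0.06 in the same comparisons. These values describe genes that share the libraries and are not independent replicates.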

How the data were processed

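Sequencing libraries of total RNA were analysed from the authors' deposited table, which per the file headers gives a raw count and an FPKM per gene and library. Per the submitters' processing notes, the build was mm39, and HTSeq 0.6.1, HISAT2 2.2.1, cutadapt 1.9.1 and bcl2fastq 2.20.0.422 are listed without a role. The annotation release and the strand setting are not stated. The deposited FPKM equals the count per exonic length and library total for 510219 of 510219 values, within 0.01. Titles and treatment labels gave the groups. UVA samples are titled MOCK, and the table's NC columns were taken as control because the remaining column names match the remaining titles.

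Counts were filtered with filterByExpr, scaled with TMM (factors 0.992 to 1.007) and tested with edgeR 4.0.16 in R 4.3.3 (quasi-likelihood F-test, two-sided), fitted on group over all 9 libraries, and with Benjamini-Hochberg adjustment over 14151 genes in each of 3 comparisons. Unless another tool is named, adjusted p-values are from this test. The scripts were tested on simulated data. Libraries of a group differed by more than sampling noise (chi-square per degree of freedom 2.30 to 5.17), so none was merged. Alternatives were DESeq2 1.42.0, limma 3.58.1 on log2(FPKM + 1) and log2(FPKM + 0.1), RLE and upper-quartile factors, no filter on low counts, the compared groups alone, a replicate block and leaving out each library. Log2 fold changes from limma are on the scale with the pseudocount.

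The genes and lists were chosen with earlier results of these data known. Library values are given for genes called in at least 1 comparison and for Xpa, Xpc, Ddb2, Polh and Rad18; up to 8 other pathway genes are named by smallest p. Cd3eap and other overlapping or neighbouring genes are named where they bear on a described gene.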

Additional observations from a re-analysis of the deposited data

How the results depend on the processing

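The calls of Ercc1 and Rpa1 against control, and the absence of calls in co-treated against UVA cells, were the same under all 17 alternatives. In UVA against control cells the count of higher genes among the 34, 3 in all libraries, ran from 1 to 4 when 1 library was left out, and that of lower genes, 2, from 1 to 3; the lower genes of the wider list, 6, ran from 2 to 6. In co-treated against control cells the 4 higher genes became 2 without the filter on low counts, 2 with DESeq2, and 1 with limma on log2(FPKM + 1) and 1 on log2(FPKM + 0.1), and ran from 1 to 4 when 1 library was left out. The 1 lower gene became 2 with either limma fit and 1 to 2 when 1 library was left out, and the wider list's 6 lower genes became 3 to 6. The cause was not tested.

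Values near 0 changed sign. Rad18 in co-treated against control cells was at -0.007 without the filter and -0.009 with either limma fit, and at -0.036 to 0.048 when 1 library was left out. Leaving out 1 library gave, in co-treated against UVA cells, -0.115 to 0.070 for Ddb2, -0.156 to 0.004 for Ercc1, -0.056 to 0.019 for Ercc3, -0.069 to 0.019 for Rad18 and -0.069 to 0.002 for Xpa. It gave -0.003 to 0.071 for Rad18 and -0.017 to 0.052 for Xpa in UVA against control cells, and -0.046 to 0.024 for Xpa in co-treated against control cells. None of these passed the threshold.

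The labels do not say that a replicate number marks a shared culture, so the numbers were not taken as pairs. Libraries of the same number correlated from -0.048 to 0.177 in their deviations from the group means (9 pairs). Those of different numbers correlated from -0.213 to 0.071 (18 pairs). Between co-treated and UVA libraries the same-number correlations were 0.157, 0.077 and 0.177, all above those of different numbers. Whether libraries of these groups shared a culture was not tested. With the number as a replicate block, 0 genes were called in co-treated against UVA cells, 4 higher and 2 lower in UVA against control cells, and 4 higher and 1 lower in co-treated against control cells. Over all tested genes the block moved the calls in co-treated against UVA cells to 16 higher and 3 lower, against 4 and 1 without it, and leaving out UVA library 3 gave 14 and 8. Without the filter on low counts there were 20 and 9, with DESeq2 8 and 2, and with limma 0. Depth limits the genes with the fewest counts, Ddb2, Poli and Ercc8.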
